A study of Rattus norvegicus with 9 samples.

Results

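The epithelial sodium channel (ENaC) and the corticosteroid signalling around it were followed in rat kidneys through 10 genes. They encode the channel subunits (Scnn1a, Scnn1b, Scnn1g), a protease that activates the channel (Prss8), a ubiquitin ligase that removes it (Nedd4l), the mineralocorticoid and glucocorticoid receptors (Nr3c2, Nr3c1), the enzyme that inactivates glucocorticoids (Hsd11b2) and genes that the receptors induce (Sgk1, Tsc22d3). Members were all non-control probes whose gene name in the array files was one of these, which gave 13 probes among 30367 gene probes on the array, or 10 of 26115 gene names. A probe was tested where its intensity was clearly above the negative controls on at least 4 arrays, and 11 of the 13, with all 10 genes among them, were tested along with 15836 probes in all. The other two, second probes of Nr3c2 and Nr3c1, did not pass this filter.

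The arrays were 1-colour Agilent rat arrays, each hybridised with RNA from the kidney tissue of 1 animal. All kidneys came from Fisher F344 rats and had 20 min. of warm ischaemia before the left kidney was removed. The 5 NP samples are labelled as not perfused, although their titles name cold perfusion with Belzer solution (BS), a preservation fluid, and the study's methods describe them as kidneys without perfusion. The 4 MSC samples were perfused for 4 hrs at 4°C with BS that carried 3000000 mesenchymal stromal cells (MSC), grown from the bone marrow of transgenic Sprague Dawley rats that express a green fluorescent protein. A further MSC array that the study set aside for poor quality was not analysed here. MSC and NP samples therefore differed in perfusion, in time after removal and in the added cells, whose parts cannot be told apart. The age of the rats was not given in the sources used here. The kidney markers Umod, Aqp2 and Slc34a1 were well above background on all 9 arrays.

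ENaC lies in the apical membrane of the late distal convoluted tubule, the connecting tubule and the principal cells of the collecting duct, where it takes up sodium from the urine. It is built from an alpha, a beta and a gamma subunit. Aldosterone, through the mineralocorticoid receptor, raises transcription of the alpha subunit and of the kinase Sgk1, and Sgk1 phosphorylates Nedd4l so that fewer channels are removed from the membrane. Corticosterone binds the same receptor, and Hsd11b2 keeps it away by oxidising it within these cells.

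The probes that the results turn on are shown here so that a reader can see which stretch of each transcript was measured, with positions on rn4, the build named in the array files. The 60-base Scnn1b probe lies on chr1:180747314-180747373, plus strand, and begins at base 1675 of its transcript. The Scnn1g probe lies on chr1:180589223-180589282, plus strand, and begins at base 2671. The Scnn1a probe lies on chr4:161468845-161468904, plus strand, and begins at base 2952. The Hsd11b2 probe lies on chr19:35341413-35341472, plus strand, and begins at base 1690. For Scnn1b the whole probe is given and for the others its first 30 bases, 5′ to 3′, in lower case since no base is singled out.
Scnn1b probe: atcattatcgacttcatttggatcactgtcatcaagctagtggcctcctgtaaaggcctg
Scnn1g probe: cactcctgccaaatggtattcccacaatct
Scnn1a probe: taagacagaccagggtaggcctggtgttct
Hsd11b2 probe: tgtctcagtgctgcagtccagagtaaatcc
Scnn1b and Scnn1g are neighbours on chromosome 1. Their probes are 158031 bases apart on rn4, and in the RefSeq gene table of GRCr8 0 genes start between them.

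The beta and gamma subunits and Hsd11b2 gave the largest differences among the members, all higher in MSC than in NP samples. Scnn1b was 1.96-fold higher, Hsd11b2 1.55-fold, Scnn1g 1.53-fold and Scnn1a 1.28-fold. Both receptors, Sgk1, Tsc22d3, Prss8 and Nedd4l had mean differences of at most 0.15 in size on the log2 scale. No member passed the call (fold change over 1.5 and FDR under 0.05) in limma's moderated test over all probes tested. Over all probes 0 were called higher (0%) and 0 lower (0%), and the smallest FDR was 0.104. At an unadjusted p under 0.05, 4 of the 11 member probes were higher in MSC samples, where 1028 of the 15836 probes (6.49%) were. In the other direction it was 0 of 11, where 811 probes (5.12%) were lower. Every MSC sample lay above every NP sample for 2 of the 11, Scnn1b and Scnn1g, against 494 probes (3.12%), and the reverse held for 0 of 11, against 337 probes (2.13%). The median difference of the 11 probes was 0.11 on the log2 scale, with 7 higher and 4 lower, beside −0.0048 over all probes.

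**Figure D1:**
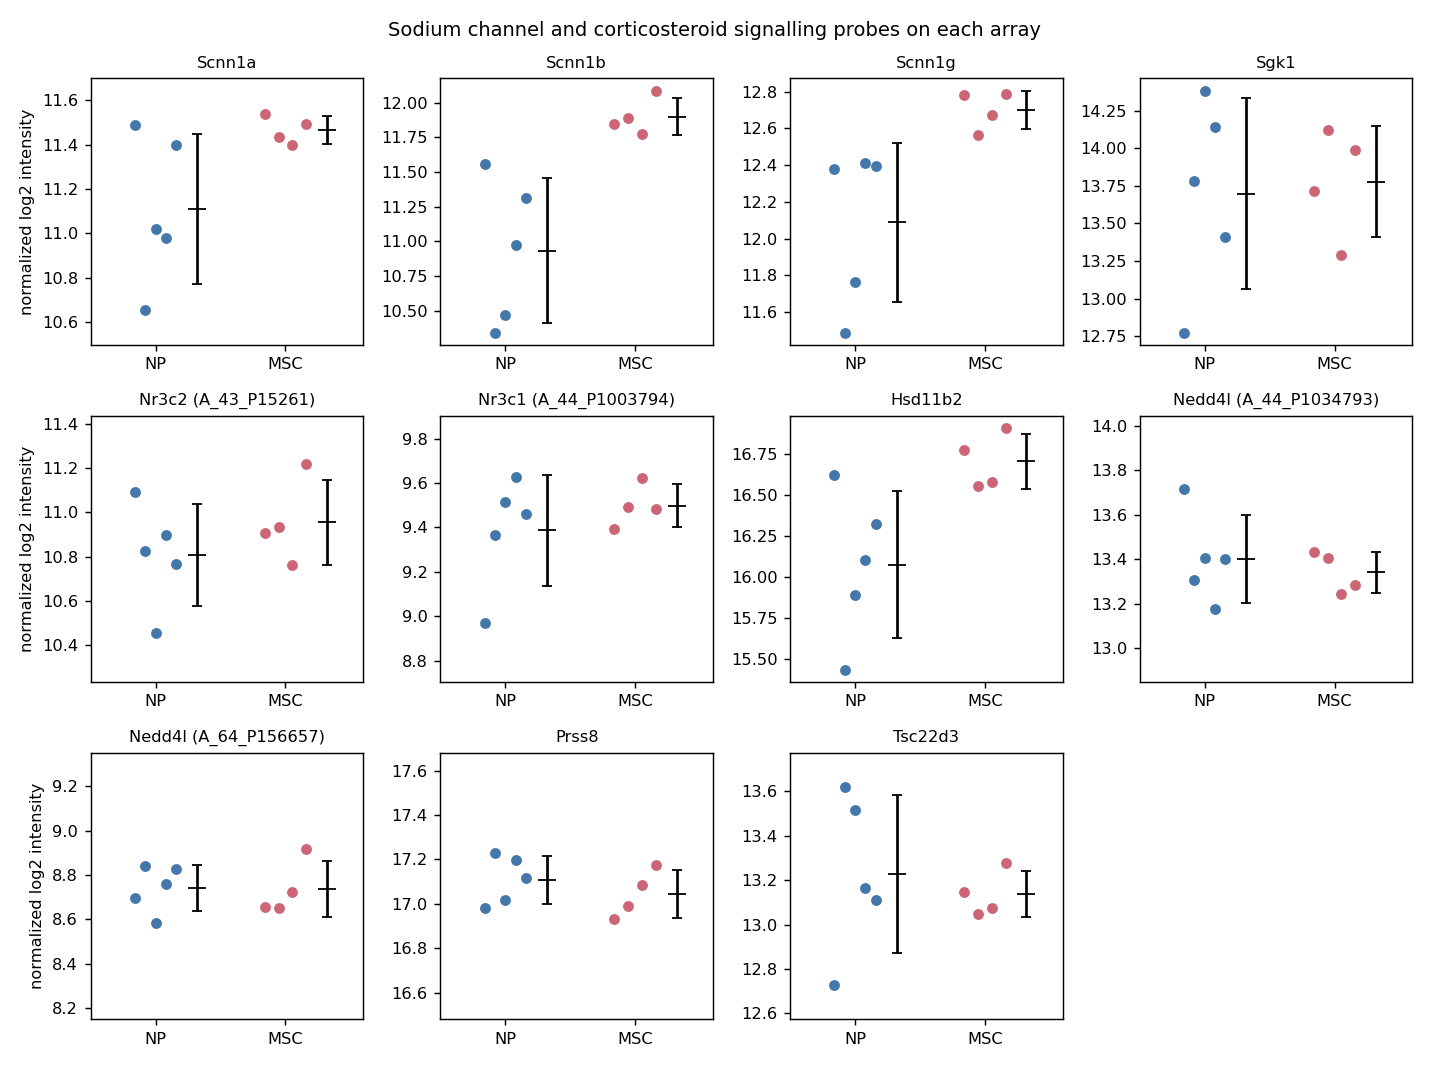
Normalized log2 intensity of the 11 member probes tested, with 1 point per array (5 NP, 4 MSC) and the mean ± S.D. beside each group. The NP points of Scnn1b and Scnn1g all lie under the MSC points, and for the other probes the groups overlap.

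Scnn1b encodes the beta subunit, which carries channels to the cell surface together with its partners. Its normalized log2 intensity was 11.56, 10.34, 10.47, 10.98 and 11.31 in NP samples 1 to 5 and 11.85, 11.89, 11.77 and 12.09 in MSC samples 1 to 4. The groups did not overlap, and NP samples 2 and 3 were the lowest. The means were 10.93 ± 0.52 (S.D., n = 5) and 11.90 ± 0.13 (n = 4), a difference of 0.97 with a standard error of 0.24 and a 95% confidence interval of 0.442 to 1.496. Its limma p was 0.00217, the 85th smallest of all, with an FDR of 0.334. An exact two-sided permutation test over the arrays gave p = 0.0159. On the 5 arrays of one slide the difference was 1.08 and on the 4 of the other 0.79.

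Scnn1g encodes the gamma subunit, which is cut by several proteases when the channel is activated. It measured 12.38, 11.49, 11.76, 12.41 and 12.40 in NP samples and 12.78, 12.57, 12.67 and 12.79 in MSC samples. All MSC samples again lay above all NP samples, and NP samples 2 and 3 were well under the other NP samples. The difference was 0.61 with a standard error of 0.20 (95% confidence interval 0.17 to 1.05), with p = 0.0112 and FDR = 0.334 in limma and p = 0.0317 in the exact permutation test. Within the slides it was 0.80 and 0.33.

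Scnn1a, the alpha subunit and the one whose transcription aldosterone is best known to raise in the kidney, differed less. It measured 11.49, 10.66, 11.02, 10.98 and 11.40 in NP samples and 11.54, 11.44, 11.40 and 11.50 in MSC samples. MSC samples 1 and 4 lay above all NP samples and the other two did not. The difference of 0.36 had a standard error of 0.16 (95% confidence interval 0.01 to 0.71), with p = 0.0459 and FDR = 0.423 in limma and p = 0.0794 in the exact permutation test. It was 0.43 and 0.26 within the slides. In a limma fit that blocked on slide it was 0.35 and no longer had an unadjusted p under 0.05, which left 3 of the 11 member probes with one, beside 6.91% of all probes. Whether the subunits differed from each other in their response was not tested.

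Hsd11b2, the glucocorticoid-inactivating enzyme of the aldosterone-sensitive cells, had its NP samples in the same order as Scnn1b. Its log2 intensity was 16.63, 15.44, 15.89, 16.11 and 16.33 in NP samples and 16.78, 16.56, 16.58 and 16.91 in MSC samples. NP sample 1 lay within the MSC range and NP sample 2 was the lowest. The difference was 0.63 with a standard error of 0.21 (95% confidence interval 0.161 to 1.098), with p = 0.0135 and FDR = 0.335 in limma and p = 0.0476 in the exact permutation test. Within the slides it was 0.68 and 0.53. For these 4 genes the S.D. over NP samples was 0.34 to 0.52, and over MSC samples 0.06 to 0.17.

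**Figure D2:**
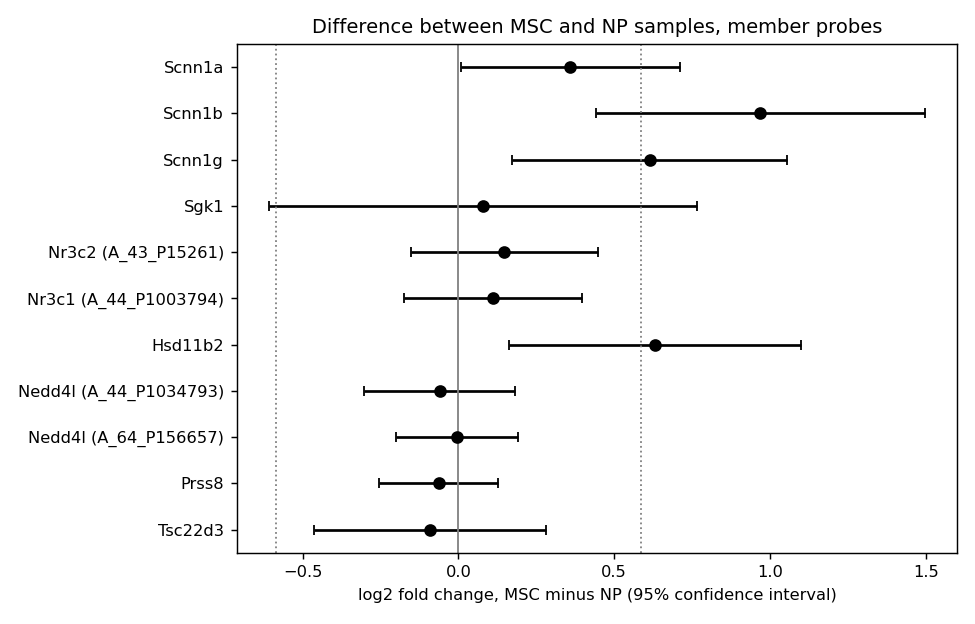
Log2 fold change, MSC minus NP, of the 11 member probes tested, with the 95% confidence interval from limma; dotted lines mark a 1.5-fold change. The intervals of Scnn1a, Scnn1b, Scnn1g and Hsd11b2 lie above 0 and those of the other 7 probes include it.

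The receptors had small mean differences. Nr3c2, the mineralocorticoid receptor that binds aldosterone, measured 11.09, 10.82, 10.46, 10.90 and 10.77 in NP samples and 10.91, 10.93, 10.76 and 11.22 in MSC samples. The ranges overlapped, and the difference was 0.15 with a standard error of 0.13 (exact permutation p = 0.349, FDR = 0.689 in limma). Nr3c1, the glucocorticoid receptor, had means of 9.39 ± 0.25 (n = 5) and 9.50 ± 0.10 (n = 4), a difference of 0.11 with a standard error of 0.13 (exact permutation p = 0.540, FDR = 0.760 in limma). NP sample 1 was the lowest, at 8.97, and the rest lay between 9.37 and 9.63. The second probe of each receptor, under the filter, differed by −0.09 for Nr3c2 and −0.04 for Nr3c1 and was not tested.

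Sgk1 and Tsc22d3 are direct targets of these receptors. Sgk1, the kinase that holds Nedd4l back, measured 12.78, 13.79, 14.38, 14.14 and 13.41 in NP samples and 13.71, 14.12, 13.29 and 13.99 in MSC samples. The NP samples spanned the whole MSC range, and the difference of 0.08 had a 95% confidence interval of −0.61 to 0.76 (exact permutation p = 0.841, FDR = 0.941 in limma). Tsc22d3, the glucocorticoid-induced leucine zipper protein, measured 12.73, 13.62, 13.52, 13.17 and 13.11 in NP samples and 13.15, 13.05, 13.08 and 13.28 in MSC samples. NP samples 2 and 3, the lowest for Scnn1b and Scnn1g, were the highest for Tsc22d3, and NP sample 1 was the lowest. Its difference was −0.09 with a standard error of 0.17 (exact permutation p = 0.651, FDR = 0.863 in limma). Without NP sample 1 the difference of Sgk1 was −0.15, and without NP sample 2 that of Tsc22d3 was 0.0076.

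The proteins that act on the finished channel had narrow ranges. Prss8 (prostasin), a serine protease anchored in the membrane, had means of 17.11 ± 0.11 (n = 5) and 17.04 ± 0.11 (n = 4) and a difference of −0.06 with a standard error of 0.09 (exact permutation p = 0.405, FDR = 0.797 in limma). Nedd4l had 2 probes in the test. The A_44_P1034793 probe had means of 13.40 ± 0.20 and 13.34 ± 0.09, a difference of −0.06 with a standard error of 0.11 (exact permutation p = 0.683, FDR = 0.860 in limma). The A_64_P156657 probe, close to the limit of the filter, had a mean of 8.74 in both groups (exact permutation p = 0.960, FDR = 0.989 in limma). For the 7 probes with a p over 0.05 these intervals include 0, which does not show that the genes were alike in the 2 groups.

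The subunits and Hsd11b2 varied together over the 9 arrays. For Scnn1b and Scnn1g Pearson's r was 0.941 and Spearman's rho 0.883, with exact permutation p-values, two-sided and adjusted over the 3 pairs that were tested, of 0.000289 and 0.00461. With the group means removed r was 0.879 (adjusted permutation p = 0.00276), and without NP samples 2 and 3, the farthest from the median, it was 0.804 (adjusted permutation p = 0.0458, n = 7) and rho 0.75 (adjusted permutation p = 0.0994). For Scnn1b and Hsd11b2 r was 0.964 and rho 0.883 (adjusted exact permutation p = 0.000132 and 0.00461). It was 0.941 with the group means removed (adjusted permutation p = 0.000289) and 0.933 without the same NP samples (adjusted permutation p = 0.00952, n = 7), where rho was 0.75 (adjusted permutation p = 0.0994). Without those samples the rank correlation of both pairs no longer passed. With the group means removed, the permutation took arrays of both groups as exchangeable, although NP samples varied more (Scnn1b S.D. 0.52 against 0.13). Those p-values are therefore approximate. The slides hold 5 and 4 arrays, too few for a value within each.

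For Sgk1 and Tsc22d3 r was 0.671 and rho 0.583 (adjusted exact permutation p = 0.0486 and 0.108). Without NP samples 1 and 3, the farthest from the median of Sgk1, r was 0.131 (adjusted permutation p = 0.818, n = 7), so this relation rests on those samples. The unadjusted p-values were 0.000193 and 0.00308 for Scnn1b and Scnn1g, 4.41e-05 and 0.00308 for Scnn1b and Hsd11b2, and 0.0486 and 0.108 for Sgk1 and Tsc22d3, each from the exact permutation test of r and of rho. As a description without a test, Scnn1a had an r of 0.958 with Hsd11b2, 0.916 with Scnn1b and −0.741 with Tsc22d3.

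**Figure D3:**
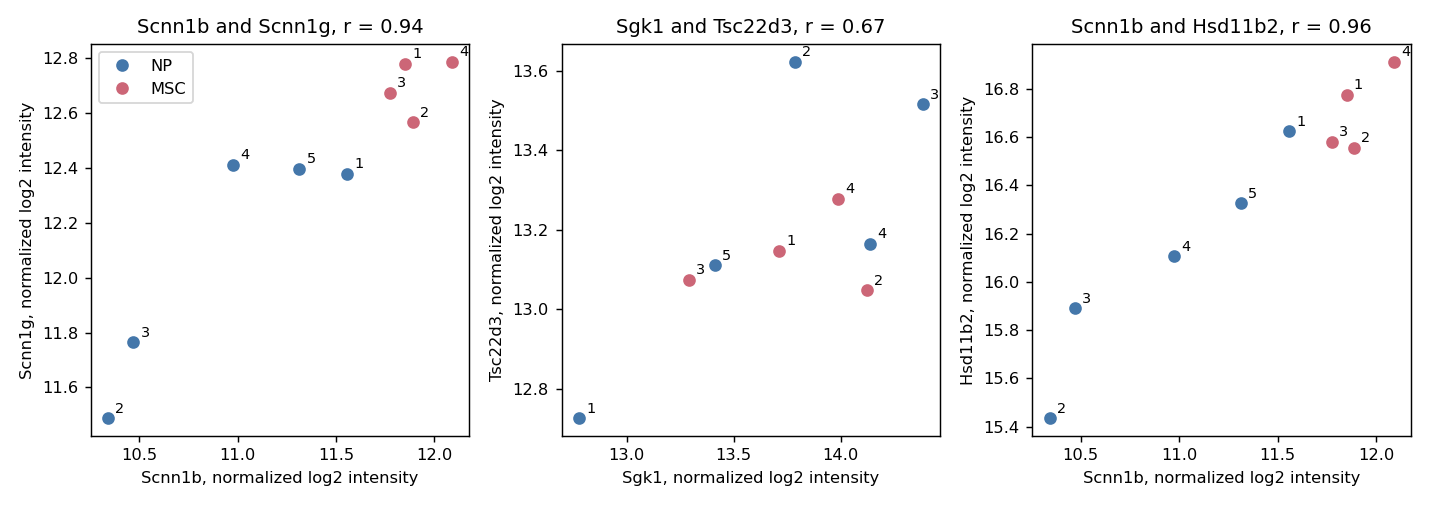
Normalized log2 intensity of Scnn1b against Scnn1g, Sgk1 against Tsc22d3 and Scnn1b against Hsd11b2, with 1 point per array (5 NP, 4 MSC) marked by its replicate number. In the first and last plot the points run from NP samples 2 and 3 at the lower left to MSC sample 4 at the upper right, and in the middle plot NP sample 1 stands apart.

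For the 3 members with the smallest p the most alike probes over the 9 arrays were sought among all probes tested, as a description. Nearest to Scnn1b were Rhcg, an ammonia transporter of the distal nephron and collecting duct (r = 0.987), and Klk1c6, a kallikrein gene of a family with near-identical copies whose signals may be shared (r = 0.981). Nearest to Hsd11b2 were Rhbg, the basolateral partner of Rhcg (r = 0.987), Degs2, a sphingolipid desaturase (r = 0.986), and Rhcg (r = 0.986). For Scnn1g they were Ttll12 (r = 0.992), Ldhb, a lactate dehydrogenase subunit (r = 0.985), and Kidins220 (r = 0.982). Rhcg was 0.81 and Rhbg 0.70 higher in MSC samples on the log2 scale, while Ttll12 and Ldhb, at 0.19 and 0.20, followed the pattern of Scnn1g with a smaller span.

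The order of the NP samples was the same in the summed levels, on the log2 scale, of marker genes of the distal convoluted and connecting tubule and of intercalated cells. The summed markers of the distal convoluted and connecting tubule were 17.40, 16.15, 16.33, 16.91 and 17.06 in NP samples and 17.39, 17.27, 17.28 and 17.41 in MSC samples. As for Scnn1b and Hsd11b2, NP samples 2 and 3 were the lowest and NP sample 1 the highest of the NP samples. The list had 8 probes in the test, and 7 were higher and 1 lower in MSC samples, with a median difference of 0.41. At an unadjusted p under 0.05 it was 4 higher and 1 lower. Among them were Calb1, the calcium-binding protein of these segments, at 1.13 (FDR = 0.231 in limma) and Slc12a3, the thiazide-sensitive cotransporter, at 0.59 and 0.41 for its 2 probes (FDR = 0.350 and 0.400 in limma). The lower one was S100g, a calcium-binding protein as well, at −0.33 (FDR = 0.349 in limma), with 12.90, 13.12, 12.97, 12.93 and 12.77 in NP samples, where sample 2 was the highest. Pvalb, a marker of the early distal convoluted tubule, was under the filter. Klk1, which also counts among the channel proteases, made up 49.9% to 67.0% of the sum on each array. Without it the sum was 15.80, 15.15, 15.28, 15.46 and 15.48 in NP samples and 15.73 to 15.98 in MSC samples, with the NP samples in the same order.

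Intercalated cells are the acid-base cells that lie among the principal cells and lack ENaC. Their summed markers were 15.44, 14.67, 14.91, 15.14 and 15.26 in NP samples and 15.48, 15.42, 15.46 and 15.78 in MSC samples, with the NP samples in the order seen for Scnn1b. The 7 probes tested were all higher in MSC samples (median 0.55), and 4 had an unadjusted p under 0.05. The proton pump subunit Atp6v0d2 differed by 0.76 (FDR = 0.334 in limma).

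Principal cell markers, of the cells in which ENaC is most studied, had a smaller median difference. Their summed level was 18.49 to 18.61 in NP samples and 18.39 to 19.03 in MSC samples, and Aqp2 alone made up 67.8% to 76.3% of it. Without Aqp2 it was 16.92, 16.48, 16.71, 16.76 and 16.81 in NP samples and 16.86, 16.31, 16.80 and 17.04 in MSC samples, with the NP samples again in the order seen for Scnn1b. Among its probes Aqp3 had that order too, and Avpr2 and Gata3 had NP samples 2 and 3 as the lowest NP samples. The other tested probes did not. Every Aqp4 probe had NP sample 2 as the highest NP sample (13.10, 10.87 and 11.33). Aqp2 and the tested probe of Elf5 had NP sample 1 as the lowest (17.99 and 9.44). Among NP samples Fxyd4 was lowest in sample 2 (15.38) but not low in sample 3 (15.67). Of 9 probes 5 were higher and 4 lower, with 0 at an unadjusted p under 0.05 and a median of 0.11, close to that of the member probes. The water channels Aqp2, the brightest, and Aqp3 differed by 0.13 and 0.11, and the vasopressin receptor Avpr2 by 0.42 (FDR = 0.561 in limma). In whole kidney tissue fewer cells of a type and less RNA per cell cannot be told apart, and the part of segment content in the differences of Scnn1b, Scnn1g and Hsd11b2 was not tested.

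**Figure D4:**
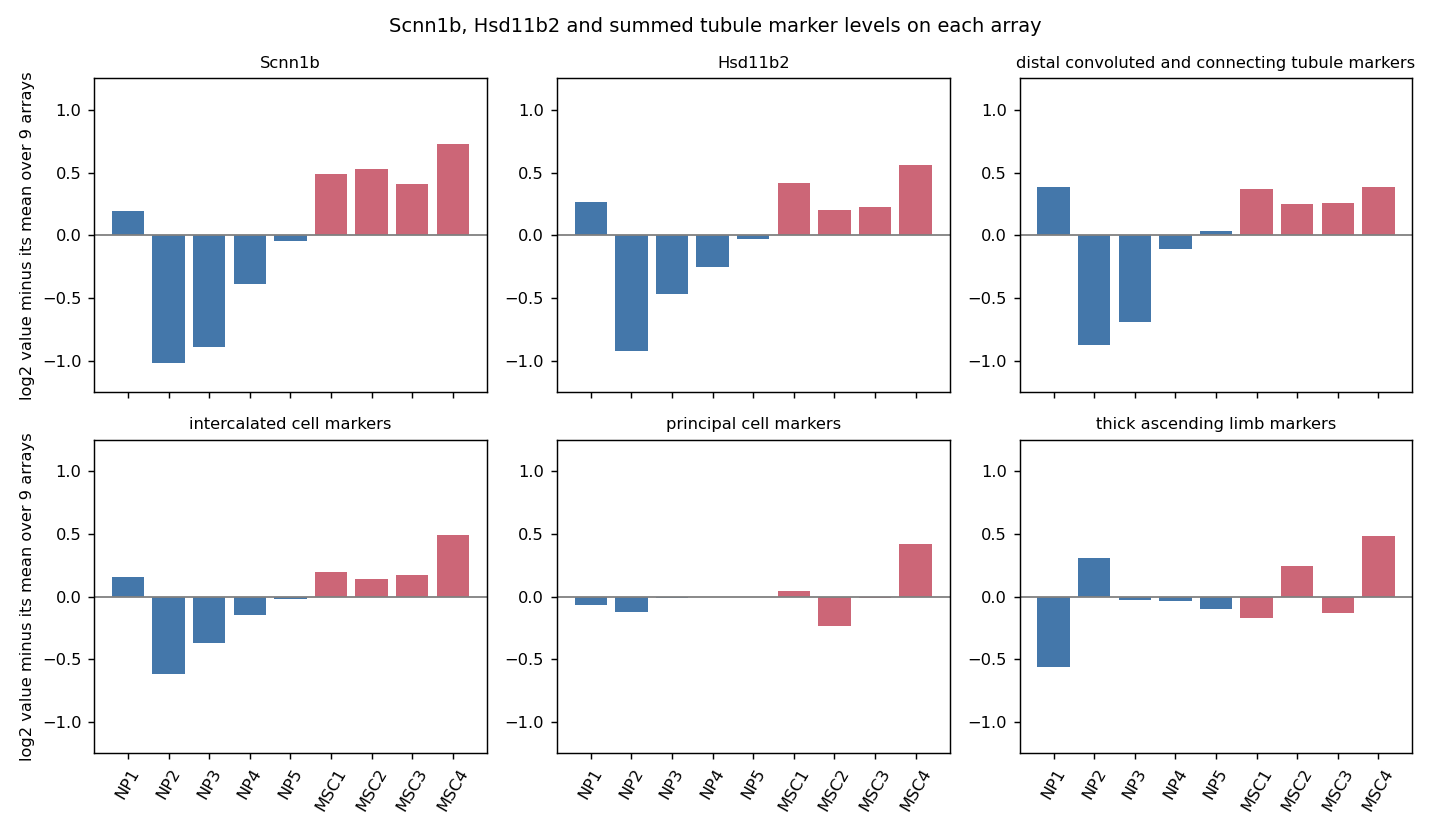
Scnn1b, Hsd11b2 and the summed levels of 4 lists of tubule markers on each of the 9 arrays, as log2 values minus their mean over the arrays (blue NP, red MSC). Scnn1b, Hsd11b2, the distal convoluted and connecting tubule markers and the intercalated cell markers are lowest in NP samples 2 and 3, whereas the summed principal cell markers, most of which is Aqp2, and thick ascending limb markers are not.

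Other cell types were checked in the same way. Markers of the thick ascending limb were 3 higher and 2 lower (median 0.15), and those of the proximal tubule 6 higher and 2 lower (median 0.17), with 1 and 2 higher at an unadjusted p under 0.05. Of the adrenal cortex, the source of aldosterone and corticosterone, Star, Cyp11a1, Cyp11b1, Cyp11b2 and Mc2r were all under the filter, and the summed level of the other two was 11.43 to 11.93 in NP and 11.25 to 11.71 in MSC samples, with 1 of them lower at that level. Fat markers were 4 higher (2 at that level) and 0 lower, with summed levels of 12.30 to 13.35 in NP and 12.44 to 15.66 in MSC samples, where samples 3 and 4 were the highest. Red cell markers were 0 higher and 3 lower (2 at that level), with 17.72 to 18.12 in NP and 14.74 to 18.03 in MSC samples, where sample 1 was the lowest. Stroma and MSC markers were 4 higher, 2 of them at that level, and 1 lower (median 0.49, summed level 13.02 to 13.96 in NP and 13.57 to 14.36 in MSC samples). Injured tubule markers were 4 higher and 1 lower, with 0 at that level. Leukocyte markers were 3 higher and 0 lower, and those of endothelium 1 higher and 2 lower, with 0 at that level in either. Without MSC samples 3 and 4 the difference was 0.94 for Scnn1b, 0.59 for Scnn1g, 0.59 for Hsd11b2 and 0.38 for Scnn1a, and of these only Scnn1b kept an unadjusted p under 0.05. Without MSC sample 1 they were 0.99, 0.59, 0.61 and 0.33, and only Scnn1a lost such a p. The part of fat, blood and stroma in the member differences was not tested otherwise.

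Proteases that cut ENaC and their inhibitors came next. Of 7 probes tested 3 were higher and 4 lower in MSC samples (median −0.04), 2 of them higher at an unadjusted p under 0.05 and 0 lower. Plau (urokinase), which can cleave the gamma subunit, differed by 0.51 with a standard error of 0.19 (FDR = 0.384 in limma). Spint2, a protease inhibitor, differed by 0.19 (FDR = 0.420 in limma). Klk1, tissue kallikrein, measured 16.83, 15.15, 15.38, 16.26 and 16.47 in NP and 16.74, 16.59, 16.68 and 16.74 in MSC samples, the order of NP samples seen for Scnn1b, with a difference of 0.67 (FDR = 0.444 in limma). Its copies in the kallikrein family may share this probe. Furin, St14, Spint1 and Serpine2 had the lower means, and Tmprss4 was under the filter.

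Regulators of channel trafficking and transcription gave 18 probes, 5 higher and 13 lower (median −0.04). At an unadjusted p under 0.05 there were 2 higher and 3 lower. Usp2, a deubiquitinase that is known to be induced by aldosterone and to stabilise ENaC, was 14.59, 15.15, 14.94, 14.24 and 14.29 in NP samples and 14.07, 14.26, 13.78 and 14.00 in MSC samples. It was lower by a mean difference of −0.61 with a standard error of 0.19 (FDR = 0.334 in limma). NP samples 2 and 3, lowest for Scnn1b and Scnn1g, were the highest for Usp2. NP samples 1 to 3 shared a slide and lay above NP samples 4 and 5 on the other slide. A difference within each slide was not taken for Usp2. For Wnk1, a kinase upstream of salt transport, one probe differed by 0.51 (FDR = 0.350 in limma) and another by −0.30 (FDR = 0.766), so its probes disagreed. The brightest probes were those of the 14-3-3 proteins Ywhab, which differed by −0.27 (FDR = 0.413 in limma), and Ywhae, by −0.02.

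Receptor chaperones, coregulators and steroid enzymes gave 14 probes, 8 higher and 6 lower (median 0.02), with 1 higher and 0 lower at an unadjusted p under 0.05. This was the cochaperone Stip1, at 0.23 (FDR = 0.390 in limma). Next by p was a probe of Hsp90aa1, a heat shock protein that holds the receptors ready for hormone, at 0.58 (FDR = 0.506 in limma). The brightest were a probe of Hsp90ab1, at 0.03, and Hsd11b1, which regenerates active glucocorticoid and works against Hsd11b2, at −0.03 (FDR = 0.904 in limma).

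Genes known to be induced by corticosteroids gave 16 probes, 5 higher and 11 lower (median −0.10), with 0 higher and 2 lower at an unadjusted p under 0.05. These were Usp2, which both lists hold, and one probe of Ddit4, an inhibitor of mTORC1, at −0.65 (FDR = 0.334 in limma). The other Ddit4 probe differed by −0.22 (FDR = 0.630 in limma). Fkbp5, a chaperone that glucocorticoids strongly induce and that the list before also holds, measured 14.95, 15.15, 15.10, 13.59 and 14.48 in NP and 14.39, 14.47, 13.86 and 13.52 in MSC samples. The groups overlapped widely, and its difference was −0.59 with a standard error of 0.33 (FDR = 0.508 in limma). For Fkbp5 too, NP samples 1 to 3 lay above NP samples 4 and 5, which were on the other slide. The brightest, probes of the metallothioneins Mt2A and Mt1a, differed by −0.04 and 0.18. Per1, Tat and Edn1 were under the filter.

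**Figure D5:**
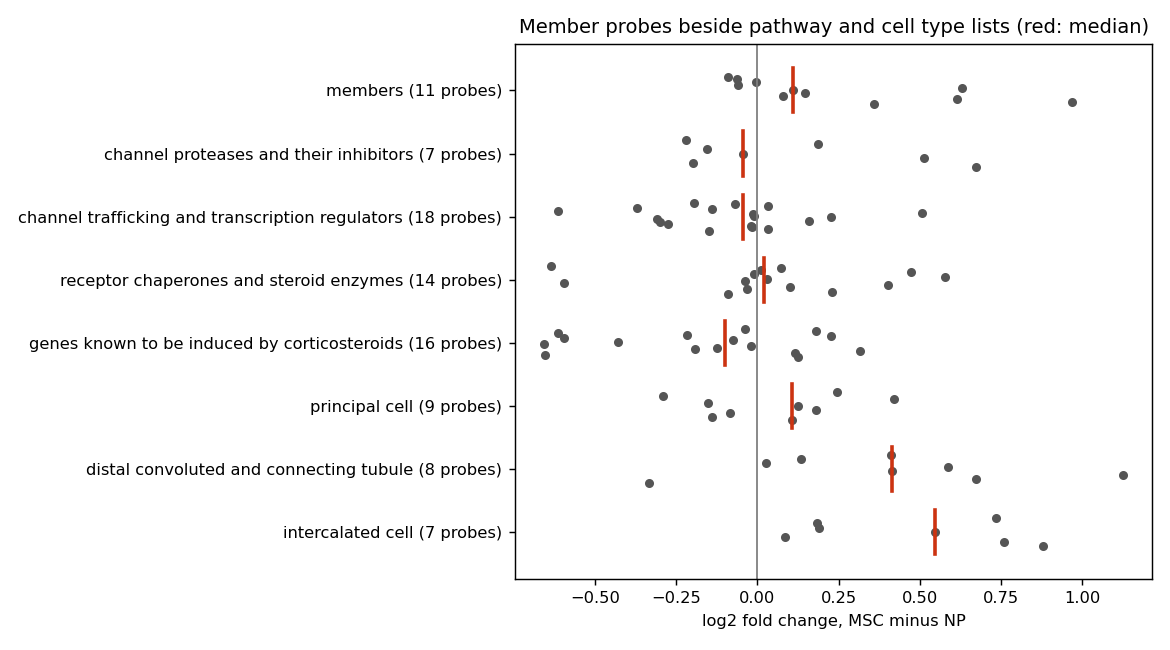
Log2 fold change, MSC minus NP, of each probe tested in the members, 4 pathway lists and 3 cell type lists, with 1 point per probe and a red line at the median. The medians of the pathway lists lie between −0.10 and 0.02, and those of the distal convoluted and connecting tubule and intercalated cell lists at 0.41 and 0.55.

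Promoters were read from a table of RefSeq promoters for GRCr8, separate from the gene table. It held 6 of the 10 members (Scnn1b, Scnn1g, Sgk1, Nr3c1, Nedd4l and Tsc22d3). Those of Scnn1b and Scnn1g are printed, since these neighbours varied together over the arrays, as the 250 bases before the start of each gene. They lie on the plus strand at chr1:185861126-185861375 for Scnn1b and chr1:185735975-185736224 for Scnn1g, and no base is singled out by a capital.
Scnn1b promoter: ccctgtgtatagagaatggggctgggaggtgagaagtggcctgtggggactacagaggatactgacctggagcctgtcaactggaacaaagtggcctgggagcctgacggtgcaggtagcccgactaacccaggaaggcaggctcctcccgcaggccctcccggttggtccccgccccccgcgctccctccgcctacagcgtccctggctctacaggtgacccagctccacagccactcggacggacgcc
Scnn1g promoter: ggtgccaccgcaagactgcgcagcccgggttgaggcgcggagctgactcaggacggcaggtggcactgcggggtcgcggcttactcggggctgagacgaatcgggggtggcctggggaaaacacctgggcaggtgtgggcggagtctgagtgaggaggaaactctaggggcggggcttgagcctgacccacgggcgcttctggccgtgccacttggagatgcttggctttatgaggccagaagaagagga
Each had a GC content of 65.6%, where the median over 33469 such promoters was 51.2%. The TGTTCT element that both receptors bind, searched on either strand, was in the promoters of 0 of the 6 members and in 17.5% of all promoters of this length. The palindrome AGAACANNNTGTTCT, which holds that element on both strands, was in 0 of the 6 and in 4 promoters of the table (0.0120%). This says only that these letters are not in these windows.

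In all 23 other ways of processing the data or leaving out arrays the tested probes of Scnn1a, Scnn1b, Scnn1g, Hsd11b2, Nr3c2 and Nr3c1 stayed higher in MSC samples and that of Prss8 lower, while Sgk1, Tsc22d3 and both Nedd4l probes changed sign in at least 1. The range was 0.82 to 1.13 for Scnn1b, 0.44 to 0.69 for Scnn1g, 0.47 to 0.77 for Hsd11b2 and 0.25 to 0.45 for Scnn1a. An unadjusted p under 0.05 was reached in 23, 21, 21 and 11 of the 23. For Nr3c2 the range was 0.06 to 0.23, lowest without NP sample 3 or MSC sample 4. For Nr3c1 it was 0.0035 to 0.22, with 0.0066 without NP sample 1. With arrays scaled only by their medians, 1 of the 11 member probes, Scnn1b, had such a p, beside 2.15% of all probes, and the same count was left without MSC samples 3 and 4, beside 3.92%.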

How the data were processed

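RNA of 5 NP and 4 MSC kidneys was hybridised to 1-colour Agilent arrays, 1 kidney an array, on 2 slides that each held both groups. The intensity of each spot was measured by the authors with Agilent Feature Extraction and deposited as unsubtracted mean pixels, among other columns. Their deposited table of log2 values was normalized between arrays with limma by the authors, and served here as an alternative. The members and lists were chosen with earlier results of these data known.

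Here the mean intensity was log2 transformed, flagged spots (273 to 593 of 58717 gene spots an array) were left out, arrays were normalized by cyclic loess, and spots of a probe were averaged. A probe was kept where at least 4 arrays put its log2 value over 1.1 times the 95th percentile of 308 negative controls, a reading of the study's filter that left 15836 of 30367 probes. The number of arrays limits the precision. Groups were compared with limma 3.58.1 in R 4.3.3 (group as the only term, Benjamini-Hochberg adjustment over all probes kept), with data.table (version 1.17.8). Exact permutation tests of single probes were also run in R, and those of correlations in Python 3.11.15 (NumPy 2.4.6, SciPy 1.17.1). The steps were tested on simulated data. Summed levels are log2 of the summed linear intensities of a list's kept probes, and the sums without Klk1 or Aqp2 were added after seeing the data.

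The genes named are all members, the 2 probes with the smallest p and the 2 brightest of each pathway list, and the 3 probes most alike the 3 members with the smallest p, of which 1 is not reported here. The other genes named were chosen after their values were seen. Gene names and positions are those of the array files, and 9 of the 10 member transcripts were found in the RefSeq gene table, all with the same symbol. A list's counts are over probes. Alternatives changed the intensity column, background, normalization, filter, source of values, variance model, block or arrays used, 1 at a time except that the 75th percentile scaling also took the processed signal. Of these, the setting without MSC samples 3 and 4, the highest in fat markers, was chosen after seeing the data. The number of columns with values per sample that were left unused was 0.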

Additional observations from a re-analysis of the deposited data

How the results depend on the processing

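With arrays scaled only by their medians, 1 member probe was higher at an unadjusted p under 0.05 and for 0 (beside 1.07% of all probes) did every MSC sample lie above every NP sample. Without MSC samples 3 and 4 the first count was also 1, in a setting chosen after seeing the data. Leaving out 1 array at a time, these counts were 3 to 4 (beside 4.91% to 7.30% of all probes) and 2 to 4, the 4 without NP sample 1, beside 5.18% of all probes, and the 2 in the other settings, beside 3.78% to 4.94%. With array weights 2 of all probes were called higher, at a smallest FDR of 0.0429, and 0 members. The A_64_P156657 probe of Nedd4l reversed to 0.0160 with quantile normalization, to 0.0292 with the processed signal scaled to its 75th percentile, which changes signal and normalization together, and to 0.0170 with the replicate block, and ranged from −0.0652 to 0.0238 with 1 array left out. The other Nedd4l probe reversed to 0.0129 with array weights and 0.0180 without MSC samples 3 and 4, and ranged from −0.117 to 0.0185 with 1 array left out. Sgk1 reversed to −0.0139 with array weights and ranged from −0.151 to 0.250 with 1 array left out, and Tsc22d3 from −0.216 to 0.00758. The correlation of Sgk1 with Tsc22d3 was 0.522 with that processed and scaled signal, 0.131 without the 2 farthest arrays and 0.384 to 0.823 with 1 array left out. The causes were not tested.

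The deviations of same-numbered NP and MSC samples from their group means had r of 0.197, 0.319, −0.352 and 0.0473 for numbers 1 to 4. Samples numbered 1, 2 and 4 also shared a slide, while those numbered 3 did not. Whether same-numbered samples were paired in another way was not tested. With the replicate number as a block 4 member probes were higher at an unadjusted p under 0.05, as without it, beside 6.33% of all probes, and Scnn1b differed by 1.06. Of the probes that did not pass the filter, that of Nr3c2 moved from −0.09 to −0.31 with the processed and scaled signal and was well above background on 3 NP and 2 MSC arrays and that of Nr3c1 on all 9.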
